A study of Homo sapiens with 6 samples.

Results

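GTSF1 and 9 further genes of the germline piRNA pathway were followed across U2OS cells, a human osteosarcoma line, to see whether the high GTSF1 mRNA of an edited clone stood alone or came with other genes of its pathway. The 10 members (GTSF1, PIWIL1, PIWIL2, PIWIL4, DDX4, TDRD1, TDRD9, MAEL, ASZ1 and MOV10L1) were taken by symbol, matched to Ensembl identifiers with GENCODE 29, and all were found among the 56982 gene identifiers shared by both deposited FPKM tables (fragments per kilobase of exon, scaled to library depth). GTSF1 was chosen by its high FPKM in the clone, and the others because they belong to its pathway, so the genotype differences of the members are given as a description, with no p-value. The libraries were 3 of G3C2, a clone edited with CRISPR/Cas9 and labelled as lacking ZFP36L1, an RNA-binding protein, and 3 of wild-type (WT) U2OS cells, all poly(A) RNA of cells in log growth at 65 to 75% confluency in serum-supplemented medium. G3C2 is 1 clone, so an effect of the genotype and a property of the clone cannot be told apart.

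Piwi-interacting RNAs (piRNAs) are small RNAs of the germ line that guide PIWI proteins, a branch of the Argonaute family, to transposon transcripts and to the loci that make them. In mouse testis the pathway cuts transposon RNA in perinuclear granules between mitochondria and directs DNA methylation to young transposon copies, and loss of most of its proteins leaves males sterile. GTSF1 is a small zinc finger protein that binds PIWI proteins and, in mice, speeds their cutting of target RNA. Most somatic cells do not make piRNA pathway proteins, while several of the genes are found switched on in tumours.

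Each genotype had libraries b and c, which share a second table, and 1 with no letter in its label, called library or replicate 1 here, in a first table. The tables had separate scales (summed FPKM of 712633 in the clone and 705014 in WT in the first, 235190 to 319282 in the second), so each difference was taken within a table. In the second table FPKM could be turned back into whole reads, 22610000 to 28980000 per library, while no depth could be had for the first. The deposited FPKM of the c libraries were not scaled to these totals: the recovered reads were 1.15 times the authors' divisor in G3C2 replicate c and 0.89 times in WT replicate c, against 0.98 in both b libraries. Every clone-over-WT ratio of label c is therefore 1.29 times what the recovered totals would give, and the median log2 difference of label c over all tested genes was 0.07 on the deposited scale and -0.16 on that of the totals. WT replicate c stood apart from WT replicate b for GTSF1 and MOV10L1, with values given beside each result. ZFP36L1 itself had 238, 105 and 82.4 FPKM in clone libraries 1, b and c, against 165, 57.1 and 128 FPKM in WT libraries 1, b and c, so its mRNA does not check the genotype label. Of 11 osteoblast lineage genes, 5 reached 1 FPKM in at least 2 libraries, among them SPARC, a bone matrix protein, at 191 to 908 FPKM in the clone and 256 to 718 FPKM in WT, while SP7 and IBSP were at or near 0. The collagen gene COL1A1 had 899, 248 and 192 FPKM in clone libraries 1, b and c, against 209, 82.1 and 184 FPKM in WT libraries 1, b and c (log2 difference 1.25, SE 0.41, limma adjusted p = 0.278).

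GTSF1 (ENSG00000170627) lies on the minus strand of chromosome 12, from 54455950 to 54473602 (GRCh38), and its annotated exons cover 2524 bases. It had 71.7, 17.6 and 26.1 FPKM in clone libraries 1, b and c, against 3.79, 0.908 and 0 FPKM in WT libraries 1, b and c. Within each table every clone library lay above every WT library, an order that the choice of GTSF1 for its high clone FPKM favours. The clone libraries placed GTSF1 above 90.0%, 86.1% and 89.0% of protein-coding genes for libraries 1, b and c. The WT libraries placed it above 48.0%, 44.0% and 0%.

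Counted as reads of the second table, GTSF1 had 1179 and 1487 in clone libraries b and c and 68 and 0 in WT libraries b and c. The ratio of clone to WT FPKM was 18.9 for replicate label 1 and 19.4 for label b. For label c no ratio can be formed with 0 reads. Set against the 3 reads that a count of 0 allows in WT replicate c (0.0468 FPKM), GTSF1 was at least 558-fold higher in clone replicate c, or at least 434-fold per recovered read of each library. The fitted log2 difference, clone minus WT on the log2(FPKM + 1) scale, was 3.99 (SE 0.28, n = 3 per genotype), a scale that understates the change of a gene so low in WT. Without WT replicate c it was 3.71.

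Libraries of the same genotype also differed in GTSF1. Clone libraries b and c had exact 95% Poisson intervals of 16.6 to 18.6 FPKM and 24.8 to 27.5 FPKM, which did not overlap. At the FPKM of WT replicate b, WT replicate c would have held 58.2 reads, or 53.1 on the recovered totals, and it held none. The intervals cover counting error only, not the scaling. Recovered reads were 0.98 times the divisor in clone replicate b and 1.15 times in clone replicate c, which widens the gap in FPKM between them. In bulk RNA, more cells with the transcript and more transcript per cell cannot be told apart, in the clone or in WT.

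**Figure D1:**
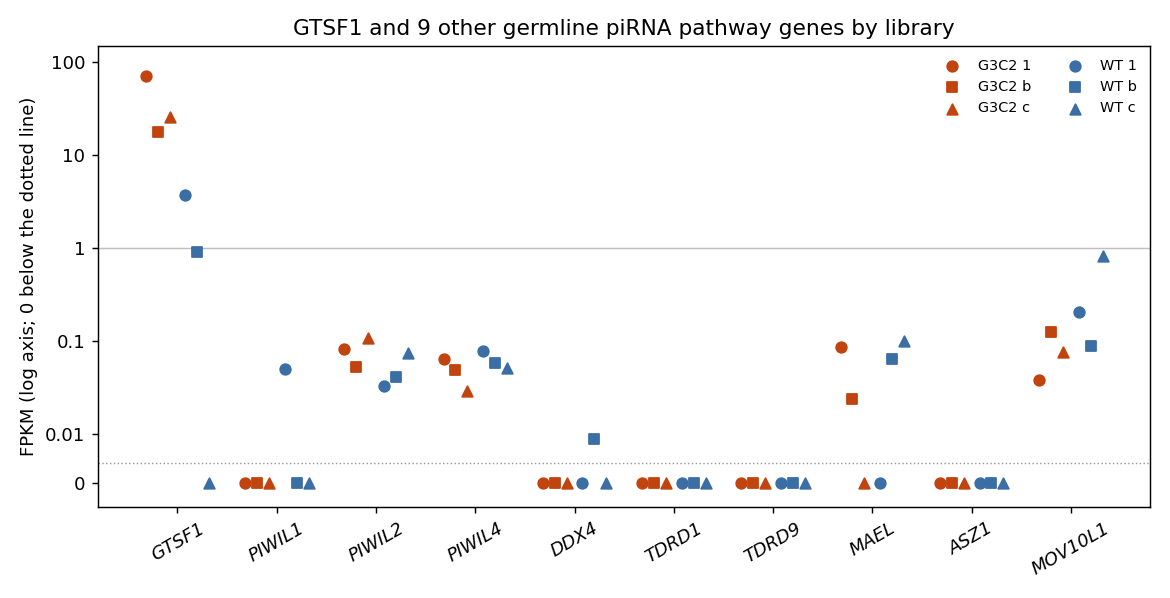
FPKM of the 10 members (log axis, 0 drawn below the dotted line) in each of the 6 libraries, clone in orange and WT in blue, with the marker shape giving the replicate label and the grey line at 1 FPKM. GTSF1 alone lies above 1 FPKM, at 17.6 to 71.7 in the clone, and no other member exceeds 0.819.

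The other 9 members were low in every library. A gene entered the fit with at least 1 FPKM in at least 2 libraries, which 15001 genes did and which 1 of the 10 members, GTSF1, did. GTSF1 was among the 3 genes called higher (0.02% of those tested, limma with Benjamini-Hochberg adjustment at 0.05), and 4 genes (0.0267%) were called lower. With the replicate label as a block the counts were 0 higher and 1 lower, and without WT replicate c they were 1 and 1. Since GTSF1 was picked for this difference, nothing is read from its call. The same holds for its rank by size of the log2 difference, 1 of 15001 in the fit, and 1, 3 and 1 for replicate labels 1, b and c. GTSF1 passed the filter through its clone libraries, since of the WT libraries only replicate 1 reached 1 FPKM.

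The other 9 members stayed at or below 0.819 FPKM in every library, and all but MOV10L1 at or below 0.108. Summed over the 9, FPKM was 0.274, 0.252 and 0.214 in clone libraries 1, b and c, against 0.368, 0.261 and 1.05 in WT libraries 1, b and c. In reads of the second table the 9 came to 39 and 29 in clone libraries b and c and to 40 and 168 in WT libraries b and c. Without MOV10L1 the sums were 16 and 17 reads in the clone and 22 and 25 in WT. In the clone GTSF1 stood at 71.7, 17.6 and 26.1 FPKM while the next highest member stood at 0.0873 (MAEL), 0.126 (MOV10L1) and 0.108 (PIWIL2). Among protein-coding genes of both tables, 35.7% were under 1 FPKM in all 6 libraries and 11.9% were listed at 0 in all 6.

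The mRNAs of the PIWI proteins, the carriers of piRNAs, were near the limit of detection. PIWIL1, the PIWI protein of meiotic and later male germ cells in mice, had 0 reads in the clone and in WT of the second table. In the first table it was listed at 0 in the clone and at 0.0501 FPKM in WT. PIWIL2, which in mice works with PIWIL4 in fetal germ cells, had 8 and 14 reads in clone libraries b and c, against 7 and 11 reads in WT libraries b and c. Its FPKM was 0.0829, 0.0525 and 0.108 in clone libraries 1, b and c and 0.0330, 0.0410 and 0.0753 in WT libraries 1, b and c. The ratio of clone to WT was 2.51, 1.28 and 1.43 for labels 1, b and c, with overlapping Poisson intervals in the second table (3.45 to 15.8 reads in clone replicate b, 2.81 to 14.4 in WT replicate b). Over all tested genes 17.8% were higher under all 3 labels and 18.6% were lower under all 3.

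PIWIL4, the nuclear PIWI protein that directs DNA methylation in mice, had 6 and 3 reads in clone libraries b and c, against 8 and 6 reads in WT libraries b and c. In the first table it had 0.0653 FPKM in the clone and 0.0780 FPKM in WT. The ratio of clone to WT FPKM was 0.838, 0.839 and 0.563 for labels 1, b and c, lower in the clone under every label but from 3 to 8 reads a library in the second table, with overlapping Poisson intervals. Of its 4558 exon bases, 683 are shared with FUT4, a fucosyltransferase gene on the same strand, which had 2.07 and 1.92 FPKM in clone libraries b and c and 1.84 and 2.16 FPKM in WT libraries b and c, so its few reads are uncertain.

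**Figure D2:**
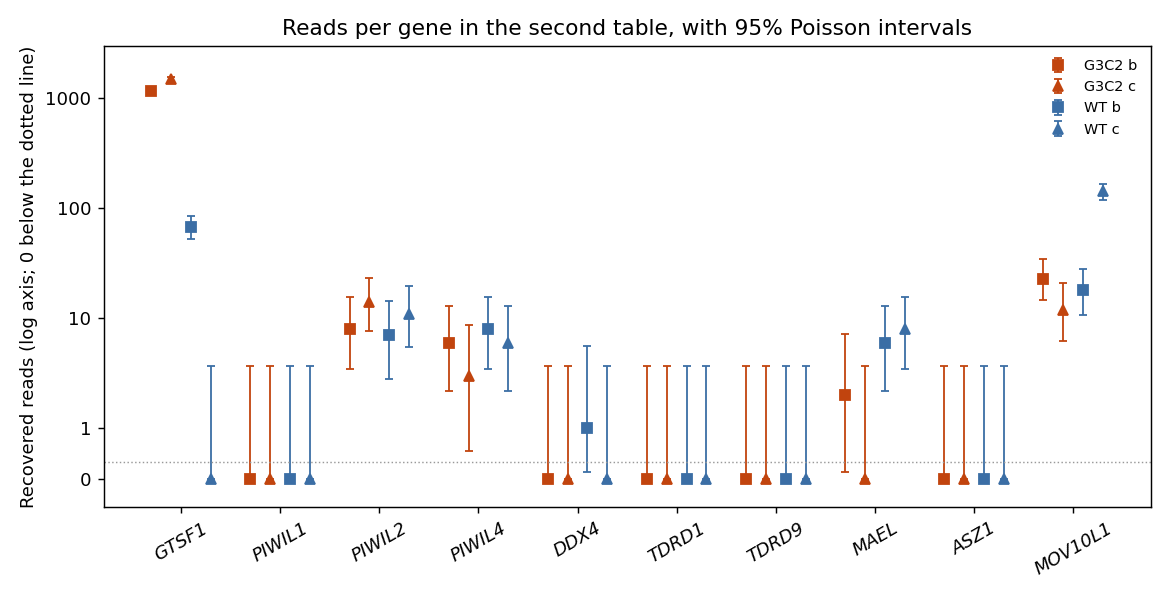
Reads recovered for each member in the second table (log axis, 0 drawn below the dotted line), clone in orange and WT in blue, with exact 95% Poisson intervals. GTSF1 has 1179 and 1487 reads in the clone against 68 and 0 in WT, while PIWIL2 and PIWIL4 have 3 to 14 reads in every library and MOV10L1 has 143 in WT replicate c.

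The mRNAs of scaffold and helicase proteins of the germ granule were not detected or nearly so. TDRD1, a Tudor protein that docks PIWI proteins, TDRD9, an RNA helicase with a Tudor domain, and ASZ1, an ankyrin repeat protein of the mitochondrial surface, were listed at 0 in all 6 libraries. A count of 0 allows up to 3 reads per library, which for TDRD9 is 0.0206 and 0.0243 FPKM in clone libraries b and c and 0.0185 and 0.0215 FPKM in WT libraries b and c. DDX4, the Vasa helicase that marks germ cells, had 1 read in all of the second table, in WT replicate b, and was at 0 in the first. MAEL, which in mice is needed for transposon silencing, had 2 and 0 reads in clone libraries b and c, against 6 and 8 reads in WT libraries b and c. In the first table MAEL had 0.0873 FPKM in the clone and was listed at 0 in WT, the opposite order.

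MOV10L1, the helicase that hands piRNA precursors to the cutting machinery in mice, was the member with the most reads after GTSF1. It had 23 and 12 reads in clone libraries b and c, against 18 and 143 reads in WT libraries b and c. In the first table it had 0.0386 FPKM in the clone and 0.207 FPKM in WT. The high value was that of WT replicate c alone, at 0.819 FPKM (95% Poisson interval 0.690 to 0.965), the library in which GTSF1 had no read. Clone libraries b and c, at 0.126 and 0.0774 FPKM, lay on either side of WT replicate b, at 0.0883 FPKM.

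The promoters of these genes differ in CpG content, a feature that bears on silencing by DNA methylation, which was not measured here. The windows printed run from 250 bases before to 50 after the RefSeq start (GRCh38.p14), 5′ to 3′ on the gene's strand, with each CpG in capitals. They show GTSF1, the member high in the clone, TDRD9, a member with no read, and MOV10L1, the member with the most reads in WT replicate c. They lie at chr12:54473553-54473852 on the minus strand, chr14:103928206-103928505 on the plus strand and chr22:50089756-50090055 on the plus strand, in that order.
GTSF1: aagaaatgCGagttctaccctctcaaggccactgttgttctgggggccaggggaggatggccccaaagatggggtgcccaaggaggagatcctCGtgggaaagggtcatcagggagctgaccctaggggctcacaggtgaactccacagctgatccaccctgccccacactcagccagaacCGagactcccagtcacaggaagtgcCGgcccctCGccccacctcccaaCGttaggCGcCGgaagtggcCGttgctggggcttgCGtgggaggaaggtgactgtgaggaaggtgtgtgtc
TDRD9: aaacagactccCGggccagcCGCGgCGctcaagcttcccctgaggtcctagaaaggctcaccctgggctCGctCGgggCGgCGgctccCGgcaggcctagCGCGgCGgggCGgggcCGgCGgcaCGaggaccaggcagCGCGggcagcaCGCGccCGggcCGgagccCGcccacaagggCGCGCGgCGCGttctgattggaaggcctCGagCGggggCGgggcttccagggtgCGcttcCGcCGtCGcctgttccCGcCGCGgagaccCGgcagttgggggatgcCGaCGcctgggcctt
MOV10L1: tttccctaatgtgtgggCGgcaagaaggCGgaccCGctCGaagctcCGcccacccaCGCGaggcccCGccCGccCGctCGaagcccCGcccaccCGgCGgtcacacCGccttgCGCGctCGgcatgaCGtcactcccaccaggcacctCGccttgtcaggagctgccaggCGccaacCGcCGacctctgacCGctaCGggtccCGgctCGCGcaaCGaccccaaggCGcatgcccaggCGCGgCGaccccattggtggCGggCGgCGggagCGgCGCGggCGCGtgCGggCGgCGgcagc

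GTSF1 had 10 CpG in this window, TDRD9 41 and MOV10L1 44, against a median of 14 over 35116 promoters of the same length. The observed number over that expected from base content was 0.35 for GTSF1, 0.94 for TDRD9 and 1.05 for MOV10L1. Of the 8 members with a RefSeq promoter (GTSF1, PIWIL1, DDX4, TDRD1, TDRD9, MAEL, ASZ1 and MOV10L1), DDX4 alone had fewer CpG than GTSF1, 1 in a window inside the GENCODE gene. The windows of PIWIL1, ASZ1, TDRD1 and MAEL held 17 to 60, with 2 windows each for TDRD1 and MAEL. The core of the MYB site, AACNG on either strand, occurred 3 times in the windows of GTSF1, PIWIL1 and TDRD9, and in 77.2% of all promoters at least once. MYBL1 (A-MYB), which drives piRNA pathway genes in mouse spermatocytes, was expressed in both genotypes, at 18.0, 2.93 and 6.23 FPKM in clone libraries 1, b and c and 19.5, 2.79 and 3.16 FPKM in WT libraries 1, b and c. The E-box CACGTG, which reads the same on both strands, and the E2F-like letters GCGGGAA on either strand were not in the GTSF1 window, and were in 7.26% and 6.55% of all promoters. The letters of AACNG and GCGGGAA can overlap.

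ZFP36L1 binds AU-rich elements in the 3′ untranslated region of mRNAs, so the longest annotated 3′ untranslated region of each member was searched for TATTTAT on the mRNA strand. GTSF1 had none in 220 bases. PIWIL2 had 3 in 2058 bases, PIWIL1 1 in 1039 bases and TDRD1 1 in 787 bases, and the other 6 members had none. Over 19145 genes searched, 31.1% held at least 1.

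GTSF1 was picked for its difference, which ranked 1 of 15001 in the fit, so no gene around it on chromosome 12 could exceed it. The surroundings of GTSF1, and of TDRD9 below, were examined because many genes of these segments were higher in earlier results of these data. An excess of higher genes there was favoured by that choice. The values of the genes around GTSF1 are given as a description. The next protein-coding gene on one side, NCKAP1L, a haematopoietic actin regulator 24108 bases away, was listed at 0 in all 6 libraries. On the other side ITGA5, the fibronectin receptor chain 36489 bases away, had 120, 29.4 and 27.8 FPKM in clone libraries 1, b and c, against 87.4, 19.7 and 21.4 FPKM in WT libraries 1, b and c. Its log2 difference was 0.45 (SE 0.14, limma adjusted p = 0.254). Beyond ITGA5, the transcription regulator ZNF385A had a log2 difference of 0.23 (SE 0.16) and COPZ1, a coatomer subunit, 0.21 (SE 0.21). The nearest tested genes on the other side were PPP1R1A, a phosphatase inhibitor (0.01, SE 0.34), METTL7B (-0.32, SE 0.24) and ITGA7, a laminin receptor chain (0.34, SE 0.25).

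Of the 20 nearest tested protein-coding genes, 10 to each side, 10 were higher in the clone under all 3 labels, 1 was lower under all 3 and none passed limma after adjustment. Over all tested protein-coding genes 18.8% were higher and 18.7% lower under all 3. Scaled to the recovered totals 8 of the 20 were higher, against 12.8% of all tested protein-coding genes. The median log2 difference of the 20 was 0.40, 0.27 and 0.43 for replicate labels 1, b and c, against -0.07, -0.01 and 0.10 over all 12152 tested protein-coding genes. Scaled to the recovered totals, the label c medians were 0.11 and -0.15. The highest fitted log2 difference of the 20 was 0.83, that of the growth factor gene GDF11. The antisense genes AC079313.1 and AC079313.2, which run across GTSF1, share no exon base with it and stood at 0 to 0.207 FPKM in the clone and 0 to 0.182 FPKM in WT.

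TDRD9, with no read in any library, lay among genes that were mostly higher in the clone under every label. This segment was chosen with earlier results of these data showing many higher genes in it, so its counts are a description. Of its 20 nearest tested neighbours on chromosome 14, 18 were higher under all 3 labels, beside the 18.8% of all tested protein-coding genes, with medians of 0.54, 0.55 and 1.25 for labels 1, b and c, and none passed limma after adjustment. Scaled to the recovered totals, 18 were higher, beside 12.8%, and the label c median was 0.97, against -0.15 over all tested protein-coding genes. ATP5MPL, a small ATP synthase subunit gene on the opposite strand, has its start inside the TDRD9 promoter window. It had 129, 24.0 and 35.4 FPKM in clone libraries 1, b and c, against 79.1, 15.9 and 6.36 FPKM in WT libraries 1, b and c, so 1 gene of this shared start region was expressed and the other was not detected.

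**Figure D3:**
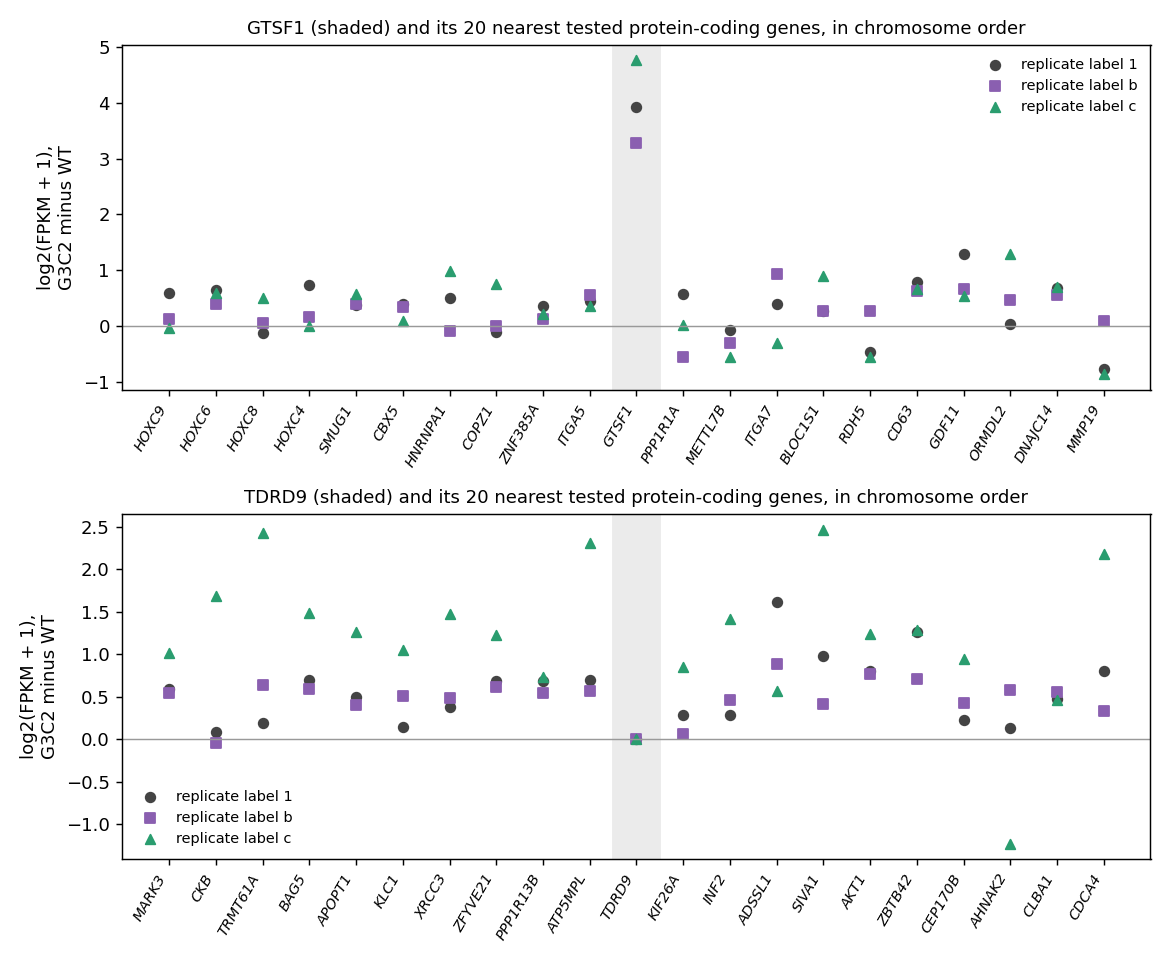
Differences in log2(FPKM + 1), G3C2 minus WT, for replicate labels 1 (circle), b (square) and c (triangle), of GTSF1 (upper) and TDRD9 (lower), each shaded among its 20 nearest tested protein-coding genes in chromosome order. GTSF1, picked for its difference, lies between 3.29 and 4.76, and the highest label difference of its neighbours is 1.30 (ORMDL2, label c). TDRD9 is drawn at 0 because it was listed at 0 in all libraries, while 18 of its 20 neighbours were higher under all 3 labels. Both segments were chosen because earlier results of these data had many higher genes there.

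A further 28 genes of the piRNA pathway, from a list of Tudor proteins, nucleases and partners, gave no gene called higher or lower by limma after adjustment. Of these 28, 11 were tested, and at an unadjusted p under 0.05 they held 2 higher and 1 lower, against 6.19% higher and 7.43% lower over all tested genes. Their median log2 difference was -0.00, against 0.01 over all tested genes. The most abundant were HSP90AA1, a general chaperone that also loads PIWI proteins, and MOV10, the somatic paralog of MOV10L1. HSP90AA1, on chromosome 14, had 2406, 318 and 522 FPKM in clone libraries 1, b and c, against 1270, 191 and 91.3 FPKM in WT libraries 1, b and c (log2 difference 1.39, SE 0.38, limma adjusted p = 0.215). MOV10 had 63.3, 22.6 and 22.8 FPKM in the clone and 69.0, 22.8 and 20.8 FPKM in WT (log2 difference -0.00, SE 0.14, limma adjusted p = 0.993).

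Beyond the fixed naming rule, TDRD5 and HENMT1 were picked after their values were seen, since they had an unadjusted limma p under 0.05. TDRD5, a Tudor protein that binds piRNA precursors in mice, had 154 and 53 reads in clone libraries b and c, against 307 and 287 reads in WT libraries b and c. Its log2 difference was -0.87 (SE 0.19, limma adjusted p = 0.171), lower under all 3 labels. HENMT1, which methylates the ends of piRNAs, had 49.3, 27.1 and 29.3 FPKM in clone libraries 1, b and c, against 38.2, 20.8 and 15.8 FPKM in WT libraries 1, b and c. Its log2 difference was 0.53 (SE 0.17, limma adjusted p = 0.266), higher under all 3 labels. Neither passed after adjustment, and over all tested genes 17.8% were higher and 18.6% lower under all 3 labels.

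The Argonaute and microRNA machinery, the small RNA pathway of somatic cells, was expressed in full, with all 13 listed genes tested and none called by limma after adjustment. At an unadjusted limma p under 0.05, 2 were higher and 1 was lower, against 6.19% higher and 7.43% lower over all tested genes. The median log2 difference was 0.06, against 0.01 over all tested genes. XPO5, which exports microRNA precursors, had 154, 18.4 and 26.3 FPKM in clone libraries 1, b and c, against 195, 17.9 and 14.5 FPKM in WT libraries 1, b and c. AGO2, the slicing Argonaute, had 142, 17.7 and 19.6 FPKM in the clone and 172, 18.1 and 17.4 FPKM in WT, a log2 difference of -0.05 (SE 0.15).

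**Figure D4:**
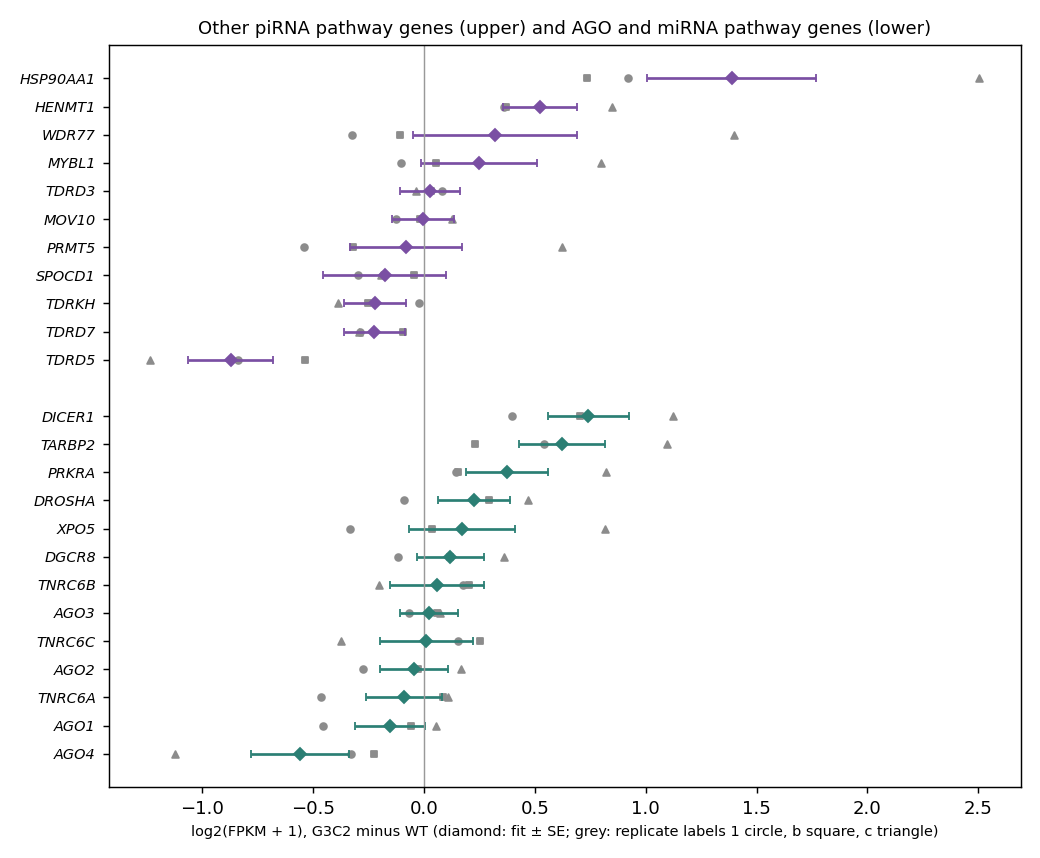
Log2 differences, G3C2 minus WT on the log2(FPKM + 1) scale, of the 11 tested genes of the further piRNA pathway list (upper) and the 13 Argonaute and microRNA pathway genes (lower). Diamonds give the fit with its SE and grey symbols the replicate labels, and the fitted differences run between -0.87 (TDRD5) and 1.39 (HSP90AA1) and the label differences between -1.24 (TDRD5) and 2.50 (HSP90AA1), with no gene past the adjusted threshold.

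Markers of germ cells were mostly low or undetected in both genotypes. Of 31 such genes, 8 were listed at 0 in all 6 libraries (DAZL, DPPA3, DND1, STRA8, SYCP1, TEX101, SPO11 and KIT), 26 were under 1 FPKM in all 6, and 4 were tested with no call. The summed level of the list was 15.2, 6.23 and 5.73 FPKM in clone libraries 1, b and c, against 16.0, 5.75 and 7.36 FPKM in WT libraries 1, b and c. HORMAD1, a meiotic chromosome axis protein also made by tumours, was the most abundant, at 7.18, 2.12 and 2.17 FPKM in the clone and 8.86, 2.45 and 2.41 FPKM in WT (log2 difference -0.17, SE 0.13). SYCE2, a synaptonemal complex protein, had a log2 difference of -0.13 (SE 0.16).

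The mRNAs of repressors of germline genes and of retroelements were present in both genotypes. All 21 were tested, and none was called by limma after adjustment. At an unadjusted limma p under 0.05, 1 was lower, against 7.43% over all tested genes. The median log2 difference was 0.04, against 0.01 over all tested genes. DNMT1, the maintenance DNA methyltransferase, had 205, 28.4 and 38.2 FPKM in clone libraries 1, b and c, against 246, 31.3 and 20.4 FPKM in WT libraries 1, b and c. TRIM28, the corepressor of zinc finger proteins at retroelements, had a log2 difference of 0.24 (SE 0.20). EHMT2, a histone methyltransferase, was listed at 0 in all 4 libraries of the second table and at 38.4 FPKM in the clone and 37.3 FPKM in WT in the first, so its value rests on the first table.

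Endogenous retrovirus genes, relatives of the elements that piRNAs silence, were low in both genotypes. Of 15 annotated genes, 4 were tested, none was called and 4 were listed at 0 in all 6 libraries. The median log2 difference of the 4 tested was -0.30, against 0.01 over all tested genes. Of these 4, 2 were lower under all 3 labels, against 18.6% of all tested genes. The summed level was 13.0, 5.56 and 6.39 FPKM in clone libraries 1, b and c, against 25.0, 6.61 and 7.14 FPKM in WT libraries 1, b and c. ERVK13-1 had a log2 difference of -0.49 (SE 0.20, limma adjusted p = 0.369) and ERVMER34-1 of -0.30 (SE 0.34, limma adjusted p = 0.728). Reads of dispersed transposon copies outside annotated genes are not analysed here.

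Over the 6 libraries, with log2(FPKM + 1) centred within each table, the 5 tested genes whose pattern was most like that of GTSF1 had Pearson correlations between 0.997 and 0.9996. They were AC012073.1, ASAH2, NTF3, RPS23P8 and LEMD3. None is a piRNA pathway gene of the lists used, but the other 9 members were not tested and could not appear. Only 11 of the 28 further pathway genes were tested, so nothing is read from their absence. The 5 are the top of 15001 genes ranked on 6 values, a search that by itself gives high correlations. Among the genes of the lists the correlations were highest for RNF2, a Polycomb ubiquitin ligase (0.961), HENMT1 (0.950), DICER1, which cuts microRNA precursors (0.942), and HSP90AA1 (0.927), with log2 differences of 0.32, 0.53, 0.74 and 1.39 in that order. Each of these was higher in the clone under all 3 labels, as were 17.8% of all tested genes. The share of all tested genes with such correlations was not computed, so nothing is read from them. A correlation takes no account of size, and the log2 differences of the 5 most alike were 0.17 to 1.11. NTF3, the growth factor neurotrophin-3, had 13.3, 4.12 and 4.78 FPKM in clone libraries 1, b and c, against 5.62, 1.85 and 1.23 FPKM in WT libraries 1, b and c. The 6 libraries are shared by all these genes, and the correlations are given as a description.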

How the data were processed

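Poly(A) RNA was sequenced in 3 libraries of clone G3C2 and 3 of WT cells. Gene values were deposited by the authors as FPKM, per the file headers, in 2 tables with 60448 and 59108 identifiers. CASAVA, HISAT2 and the GRCh38.p12 build were used per the submitters' processing notes, and counting and strand settings are not given in the sources used here. Groups and labels came from sample titles. RNA was harvested on 3 occasions per the series text, but no label ties a library to an occasion, so the spread behind each p-value may be partly technical.

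With GENCODE 29 exon lengths (56868 of 56982 shared identifiers matched), values up to 50 reads in the second table were whole within 0.02 reads in 98.1% of cases in each library. The first table gave 62.4% in the clone and 64.5% in WT, and no reads were taken from it. Limma 3.58.1 (R 4.3.3) was run on log2(FPKM + 1) with terms for genotype and table and with the trend option, with p-values adjusted by Benjamini-Hochberg (threshold 0.05), and was tested on simulated data. Same-labelled libraries deviated together (r = 0.93, 0.80 and 0.60 for 1, b and c), which the separate tables alone can give, and within the second table r was -0.17. With the replicate label as a block, 0 genes were higher and 1 lower, against 3 and 4.

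The members, the lists and the neighbourhoods of GTSF1 and TDRD9 were chosen with earlier results of these data known. Genes named were the members, the 5 most like GTSF1, up to 4 called or the 2 most abundant tested genes per list, and the 3 nearest tested neighbours of GTSF1 on each side. Intervals are exact 95% Poisson intervals, and a count of 0 was given a floor of 3 reads per library. Python 3.11.15, pandas 2.3.3, scipy 1.17.1 and matplotlib 3.10.9 were used.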

Additional observations from a re-analysis of the deposited data

How the results depend on the processing

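The GTSF1 log2 difference was positive in every setting. It was 5.46 with a pseudocount of 0.1 and 7.87 when limma-voom was run on reads of the second table, against 3.99, and both add a smaller constant to the 0 of WT replicate c. It lay between 3.60 and 4.34 with a library or a replicate label left out.

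Of 15001 genes, 3 were called higher and 4 lower. The replicate block gave 0 higher and 1 lower (1782 genes at an unadjusted limma p under 0.05, against 2043). Fitting only the second table also gave 0 and 1 (1109 genes), while dropping the table term (223 genes) or the low-value filter (2909 genes) gave 0 and 0. Limma-voom called 1 higher, equal medians 5 higher, and a minimum mean FPKM of 5 left 1 lower. With libraries or labels left out, higher calls ran from 0 to 448 and lower calls from 0 to 457. Both were 0 without any single library of replicate 1 or b, and both were 1 without WT replicate c, while they were 11 and 6 without G3C2 replicate c. The upper ends came from leaving out label c in both genotypes, and 60 and 151 from leaving out label b. The cause was not tested.

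Scaling the second table to the recovered reads, an alternative chosen after seeing the data, gave 1 higher and 3 lower and a GTSF1 difference of 3.93. With it the median of the 13 microRNA pathway genes was -0.04, against 0.06, and that of the 21 repressors -0.05, against 0.04. The median over all tested genes moved likewise, to -0.08 from 0.01, so these sign changes follow the scale. The median of the further piRNA pathway list was -0.12, against -0.00, and that of the endogenous retrovirus genes -0.37, against -0.30.

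The other members had a fitted value only without the filter on low values, where their log2 differences ran from -0.31 (MOV10L1) to 0.04 (PIWIL2), and they fell short of it under the other settings. Depth limits those members: 0 reads in the second table allow up to 3 per library, and the first table gives no depth.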

Other observations

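Further genes of the piRNA pathway list were high in a single WT library, and are named here because of those values. GPAT2, a mitochondrial acyltransferase needed for piRNA production in mice, had 0 and 0 reads in clone libraries b and c, against 20 and 224 reads in WT libraries b and c, and was listed at 0 in both libraries of the first table. It has near-identical pseudogene copies, so its reads are uncertain. STK31, a Tudor kinase of germ cells, had 0.159 FPKM in clone replicate 1 and 1.04 FPKM in WT replicate 1, while in the second table it had 8 and 2 reads in clone libraries b and c and 10 and 8 in WT libraries b and c. GPAT2 and MOV10L1 (12 reads in clone replicate c, 143 in WT replicate c) were high in the WT library in which GTSF1 had 0 reads.

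DNMT3B, a DNA methyltransferase also named after its values were seen, had 14.8, 8.25 and 11.2 FPKM in clone libraries 1, b and c, against 33.1, 17.1 and 10.9 FPKM in WT libraries 1, b and c (log2 difference -0.68, SE 0.24, limma adjusted p = 0.312). Among the microRNA genes DICER1, on chromosome 14, had 36.9, 7.54 and 7.65 FPKM in the clone and 27.8, 4.25 and 2.97 FPKM in WT. It was higher under all 3 labels, as were 17.8% of all tested genes (log2 difference 0.74, SE 0.18, limma adjusted p = 0.197).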
